A study of Mus musculus with 2 samples.

Results

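The 50 genes described here license replication origins, fire them and copy DNA at the fork. They were taken as a fixed list of named genes and were found by Ensembl identifier in the gene tables of both libraries, among 43346 Ensembl genes of which 21461 are nuclear and protein-coding. Both libraries hold total RNA of primary CFU-Ery cells, progenitors committed to the erythroid lineage, from adult male C57BL/6J mice 5 to 6 weeks old, isolated by a protocol whose title names bone marrow. Each library was made from 1 ng of RNA with fragments of 150 to 400 nt, and the labels name no treatment, no mutation and no other cell type, so the series has 1 group and no control. The labels give the libraries separate biological replicate numbers and separate biosamples but the same donor record. This leaves unstated if different animals were used. The spread between the libraries may therefore be technical, although they are labelled as biological replicates.

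Before a cell copies its DNA, the origin recognition complex (ORC) binds origins and, with Cdc6 and Cdt1, loads the ring-shaped MCM2-7 helicase onto DNA, a step called licensing that geminin blocks by binding Cdt1. The kinases Cdc7-Dbf4 and cyclin E-Cdk2 then fire origins, and Cdc45 and the GINS complex join MCM2-7 to form the active helicase. Polymerase alpha-primase starts each strand, polymerases epsilon and delta extend the leading and lagging strands on the PCNA clamp, and Fen1 and Lig1 process and join Okazaki fragments. Colony-forming erythroid cells are known for rapid divisions in which they become erythroblasts.

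Expression is given as TPM, a length-corrected share of all transcripts, rescaled so that the nuclear protein-coding genes alone make up the total of a library, called rescaled TPM, with replicate 1 before replicate 2. The gene tables hold 143491647 and 110634458 expected counts in all, of which 4717790 and 4093202 fall on nuclear protein-coding genes. The 50 genes took 31959 and 28078 of these counts, or 0.677% and 0.686%, with single-gene counts between 40.0 and 3688. With 2 libraries of 1 group the smallest exact sign-flip p would be 0.5, and values are described without tests. The 95% Poisson intervals given for counts cover counting error only and treat reads as independent. Copies made by PCR are counted too, so the intervals may be too narrow. They also leave out the uncertainty of assigning reads to entries. The same limits hold for the counting intervals of ratios.

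All 50 genes reached 1 rescaled TPM in both libraries, as did 44.6% of nuclear protein-coding genes. On the deposited TPM scale, where mitochondrial and other RNA takes most of the total, 40 of the 50 reached 1 TPM in both, as did 12.6% of nuclear protein-coding genes. Their median was 80.7 and 84.2 rescaled TPM, against 22.9 and 21.1 for the 9078 nuclear protein-coding genes with a mean of at least 20 counts. All 50 ranked above the 50th percentile of nuclear protein-coding genes in both libraries, 49 above the 75th and 30 above the 90th, and Fen1, with a mean percentile of 70.3, was the gene below the 75th. In the plot of levels by role, Pcna stands at the top and Fen1 at the bottom.

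**Figure D1:**
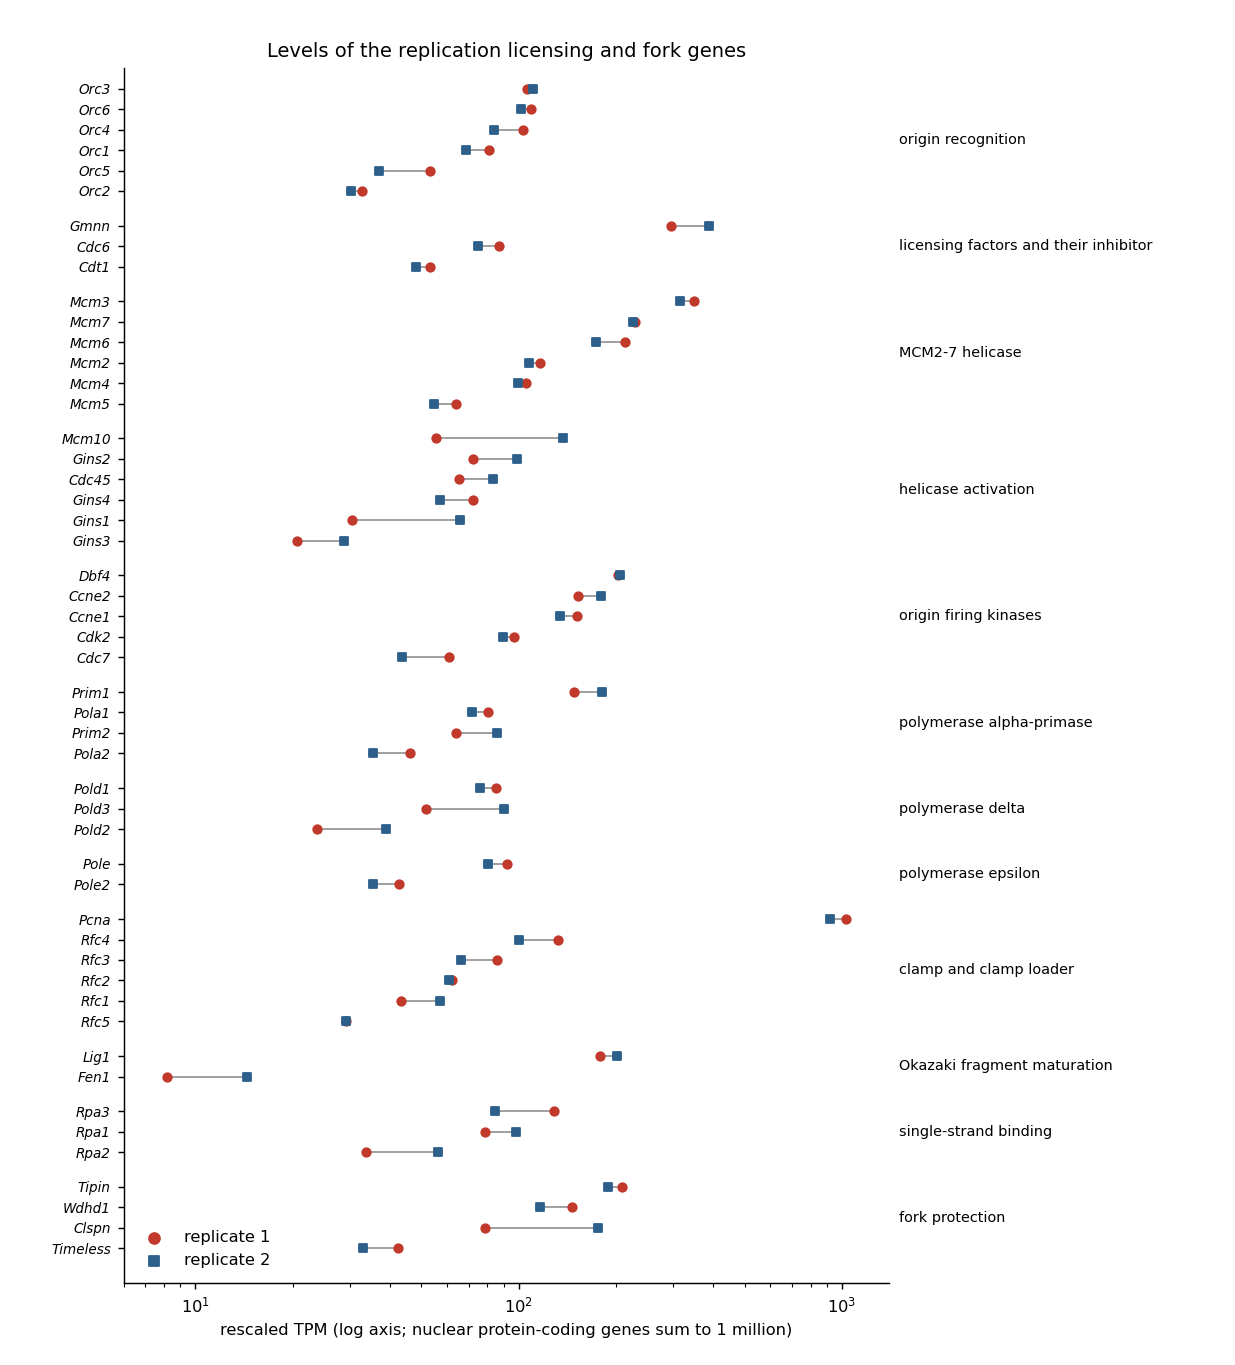
Rescaled TPM of the 50 genes on a log axis, grouped by role, with replicate 1 as red circles and replicate 2 as blue squares joined by a grey line. Pcna lies highest at 1029 and 917, Fen1 lowest at 8.20 and 14.4, and the widest gaps between the libraries belong to Mcm10, Clspn and Gins1.

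Marker genes of several blood lineages were read, and 14 of 14 erythroid markers reached 1 rescaled TPM in both libraries. Their summed levels were 168604 and 168123 rescaled TPM, led by Hbb-bs, Hba-a1 and Slc4a1. Most of this was globin: Hbb-bs had 98688.3 and 97052.1 rescaled TPM, and Hba-a1 48405.3 and 50059.5. Markers of other lineages reached 1 rescaled TPM too, so this threshold cannot establish the identity of the cells. Markers of granulocytes and monocytes were also present, 16 of 16 at 1 rescaled TPM, with sums of 25239.9 and 29266 led by S100a9, S100a8 and Ngp. Macrophage markers (8 of 8, led by Slc40a1, C1qb and Vcam1) summed to 735 and 773, and B lymphoid markers (8 of 8, led by Ighm, Cd79b and Cd79a) to 743 and 703. Stem and multipotent progenitor markers (7 of 8, led by Kit, Ly6a and Gata2) summed to 52.6 and 67.3, and megakaryocyte markers (5 of 7, led by Gp9, Pf4 and Vwf) to 103 and 131. Mecom had 0 counts in replicate 1 and Gp1bb 0 in replicate 2, and no marker was at 0 in both. The share of the replication transcripts that other cells contributed was not tested, and in bulk RNA fewer cells of a type and less RNA per cell cannot be told apart.

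Among the origin recognition genes, Orc3, Orc6 and Orc4 were the most abundant over all transcripts and Orc2 the least. Orc3 had 106 and 111 rescaled TPM, Orc6 109 and 102, and Orc4 104 and 84.0, and the ranges of these neighbours in the order overlapped. Orc1, the largest subunit, had 81.1 and 68.8 rescaled TPM, Orc5 53.1 and 37.0, and Orc2 32.8 and 30.3, each below its neighbour in both libraries. The level of the highest subunit was 3.49 ± 0.22 times that of the lowest (SD, n = 2). Over transcripts typed as protein-coding the order changed: Orc6 stayed at 109 and 102 rescaled TPM, while Orc3 had 28.9 and 25.2 and Orc4 10.8 and 21.1, the lowest of the 6 in both libraries. The highest was then 7.47 ± 3.74 times the lowest (SD, n = 2).

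Of the factors that load the helicase, Cdc6, the ATPase that joins ORC at the origin, had 87.1 and 74.7 rescaled TPM. Cdt1, which brings MCM2-7 to it, had 53.1 and 48.1. Gmnn, which encodes geminin, was well above both at 297 and 387 rescaled TPM, and by mean level stood next to Pcna at the top of the 50 genes, although Mcm3 was above it in replicate 1. The log2 level of Cdt1 over Gmnn was -2.48 in replicate 1 (95% counting interval -2.67 to -2.29) and -3.01 in replicate 2 (-3.21 to -2.81). Cdt1 was therefore 6.71-fold lower than its inhibitor on average, a log2 value of -2.75 ± 0.37 (SD, n = 2), and the order was the same in both libraries.

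The MCM2-7 helicase genes had a median of 165 and 140 rescaled TPM, against 92.3 and 76.4 for ORC1-6. Mcm3 was highest with 350 and 315 rescaled TPM, followed by Mcm7 with 230 and 225 and Mcm6 with 214 and 174. Mcm2 had 116 and 107, Mcm4 105 and 99.9, and Mcm5 63.9 and 54.8. The order Mcm3, Mcm7, Mcm6, Mcm2, Mcm4, Mcm5 held in both libraries with no overlap between neighbours, and the level of Mcm3 was 5.61 ± 0.19 times that of Mcm5 (SD, n = 2). The subunits occupy the loaded helicase in equal numbers, and the transcripts behind their unequal levels are described next.

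Much of the Mcm3 and Mcm7 level lay in transcripts annotated as retaining an intron, a class not typed as protein-coding. In Mcm3 such transcripts held 81.6% and 79.5% of the TPM, a 716-base model alone having 179 and 144 rescaled TPM, while the 3031-base coding transcript had 64.3 and 64.4. In Mcm7 a 986-base retained-intron model held 116 and 100.3 rescaled TPM, and all its coding transcripts together 113 and 120. In Mcm6 the retained-intron share was 25.5% and 5.97%, and Mcm2, Mcm4 and Mcm5 had coding transcripts alone. Counted over coding transcripts, Mcm6 was highest with 159 and 163 rescaled TPM, Mcm3 with 64.3 and 64.4 stood beside Mcm5 with 63.9 and 54.8, and the highest subunit was 2.74 ± 0.34 times the lowest (SD, n = 2). Short models raise TPM because each read counts for more per base: Mcm3 had 1043 and 892 expected counts and Mcm2 1149 and 970.

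**Figure D2:**
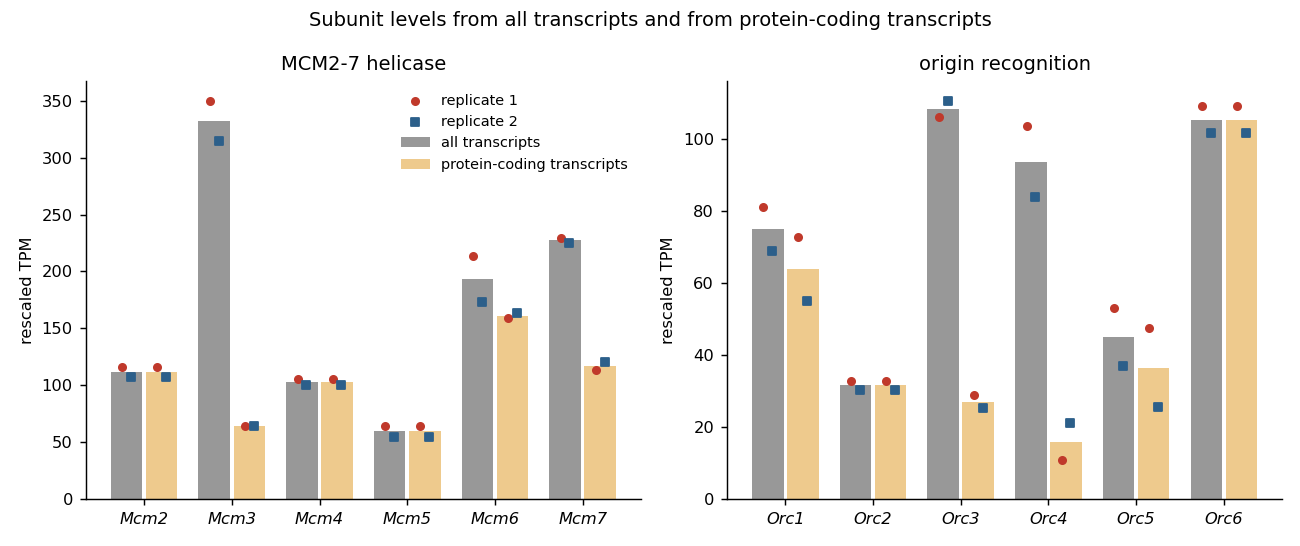
Rescaled TPM of the MCM2-7 and ORC1-6 genes from all transcripts (grey bars) and from protein-coding transcripts (yellow bars). Bars are means of 2 libraries and points the libraries; Mcm3, Mcm7, Orc3 and Orc4 drop in the yellow bars, Mcm3 to 64.3 and 64.4, while Mcm2, Mcm4, Mcm5, Orc2 and Orc6 keep their level.

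Promoters were searched for E2F-type motifs because E2F factors, the textbook activators of genes needed in S phase, bind short motifs rich in G and C. Windows of 250 bases before to 50 bases after each annotated start, from RefSeq on GRCm38.p6, were searched on both strands for TTTCCCGC, TTTGGCGC, TTTCGCGC and TTCCCGCC. The first and last of these overlap by 7 letters, so a single site can match both. The 3 genes with the most matches are shown, ties being settled by mean level, so they are no fair sample of MCM promoters. The Mcm2 window held no match and Mcm4 had no window. Shown are Mcm3 (chr1:20820263-20820562, minus strand) and Mcm6 (chr1:128359656-128359955, minus strand), with 3 matches each, and Mcm7 (chr5:138171834-138172133, minus strand), with 2, as many as Mcm5, Rfc3, Pold1 and Pold3. Sequences run 5′ to 3′ along the gene, and capitals mark the matched bases.
Mcm3: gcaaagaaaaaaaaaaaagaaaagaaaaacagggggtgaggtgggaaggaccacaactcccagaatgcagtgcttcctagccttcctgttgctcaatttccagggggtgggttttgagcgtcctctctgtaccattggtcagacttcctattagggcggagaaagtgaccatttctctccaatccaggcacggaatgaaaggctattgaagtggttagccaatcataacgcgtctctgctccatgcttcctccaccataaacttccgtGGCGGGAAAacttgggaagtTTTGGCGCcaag
Mcm6: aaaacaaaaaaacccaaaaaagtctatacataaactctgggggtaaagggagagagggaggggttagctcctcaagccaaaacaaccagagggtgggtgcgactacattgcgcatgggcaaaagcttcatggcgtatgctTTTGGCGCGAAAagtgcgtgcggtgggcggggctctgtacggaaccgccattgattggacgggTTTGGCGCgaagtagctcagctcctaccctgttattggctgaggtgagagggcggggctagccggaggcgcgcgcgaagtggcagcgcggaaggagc
Mcm7: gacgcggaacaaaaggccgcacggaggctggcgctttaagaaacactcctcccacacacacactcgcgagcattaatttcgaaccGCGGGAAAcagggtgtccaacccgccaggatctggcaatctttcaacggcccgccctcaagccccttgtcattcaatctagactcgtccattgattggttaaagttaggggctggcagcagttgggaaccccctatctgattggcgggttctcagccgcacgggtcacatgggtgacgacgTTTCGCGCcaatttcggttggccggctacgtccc

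The Mcm3 window holds 3 matches in 2 separate sites, from base 19 to 27 and from 39 to 46 after the start. In Mcm6 a site of overlapping TTTGGCGC and reversed TTTCGCGC runs from base -110 to -99, and another TTTGGCGC from -47 to -40. Mcm7 has a reversed TTTCCCGC from -165 to -158 and a TTTCGCGC from 17 to 24.

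Windows were matched by symbol for 40 of the 50 genes, and 21 of them (52.5%) held at least 1 of the 4 motifs, against 874 of 16317 nuclear protein-coding genes (5.36%). Over single windows the share was 42.9% of 49, against 3.49% of all 32851 in the table. The promoters of the 50 genes had a median GC content of 62.3%, against 57.0% for nuclear protein-coding genes. Among windows in the middle range of the genes' GC content (54.7% to 65.7%), 14 of 22 genes (63.6%) held a motif, against 450 of 6459 nuclear protein-coding genes (6.97%). The nuclear protein-coding genes compared were not limited to expressed ones, and the part of expression in these differences was not tested. A match is a string of letters and no measure of binding.

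The matches were spread over the roles: 4 of 5 MCM2-7 windows (Mcm3, Mcm5, Mcm6, Mcm7), both Cdc6 and Cdt1, Orc1, Orc3 and Orc4 of 6 ORC genes, and Clspn, Lig1, Rfc3, Rfc4, Pola1, Prim1, Pold1, Pold3, Pole2, Cdc7, Cdk2 and Gins3. None of the 3 Rpa genes held a match, nor did Pcna, the most abundant gene. Of 30 matches, 21 began at base -60 or later and 14 after the start itself. Genes with a match had a median of 85.9 and 84.0 rescaled TPM, and those whose window had none 55.7 and 83.3. The genes with a match thus lay higher in replicate 1 and about level with the rest in replicate 2. Gmnn, Rfc2, Tipin, Pole, Mcm4, Ccne2, Gins1, Gins2, Gins4 and Prim2 were not among the genes matched.

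**Figure D3:**
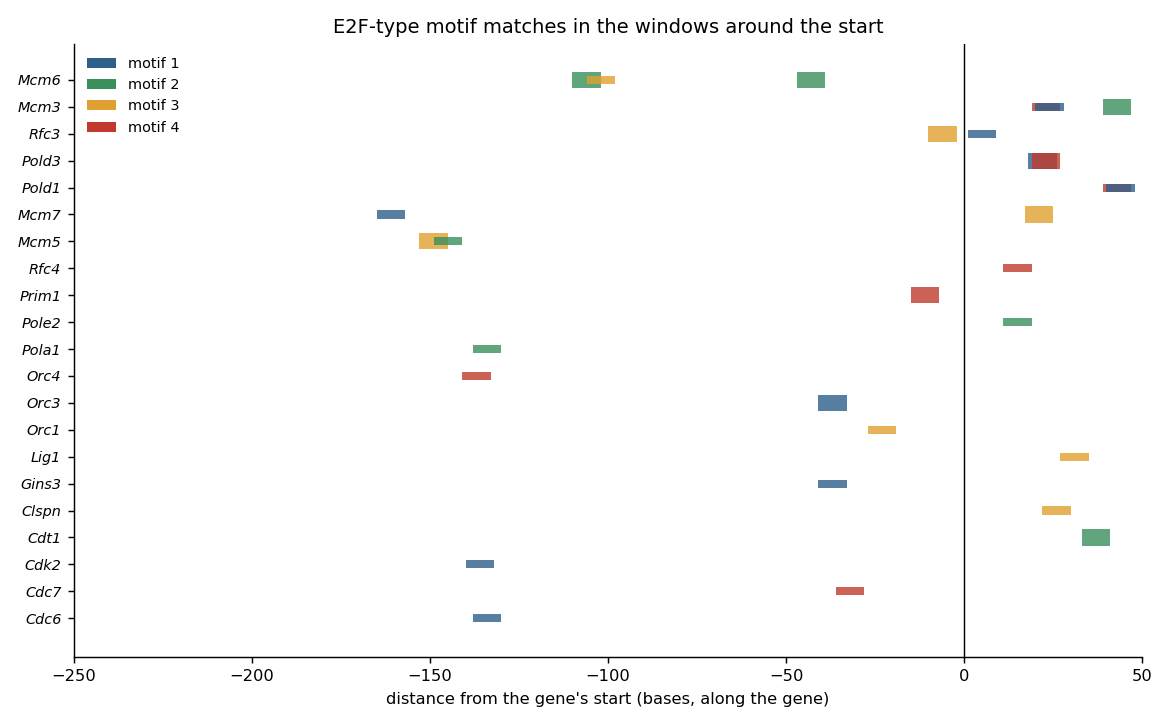
Positions of motif matches in the windows of the 21 genes that hold one, in bases from the gene's start along the gene. Motifs 1 to 4 are TTTCCCGC, TTTGGCGC, TTTCGCGC and TTCCCGCC; tall bars are matches on the gene's strand and short bars on the other strand, and 21 of 30 matches begin at base -60 or later.

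The genes that activate the loaded helicase were lower than MCM2-7, with a median of 60.6 and 74.6 rescaled TPM. Cdc45, a subunit of the active helicase, had 65.6 and 83.3 rescaled TPM. Of the GINS subunits, Gins2 had 72.1 and 99.2, Gins4 72.1 and 57.0, Gins1 30.6 and 65.9, and Gins3 20.7 and 28.9. Mcm10, which is needed to start unwinding, had 55.7 and 137. From Mcm10 to Gins1 each neighbour in the order overlapped the next. Over coding transcripts Mcm10 had 14.7 and 8.88 rescaled TPM, so its higher level in replicate 2 did not hold there.

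The kinases that fire origins were unequal in their subunits. Dbf4, the regulatory subunit of the Cdc7 kinase, had 204 and 206 rescaled TPM, and Cdc7 itself 60.8 and 43.7. The log2 level of Dbf4 over Cdc7 was 1.74 and 2.24, a 3.98-fold excess on average, and 1.90 and 1.94 over coding transcripts. Cdk2 had 97.1 and 89.2 rescaled TPM. Its partners, the cyclins E, had similar levels, Ccne1 152 and 134 and Ccne2 152 and 179, and the log2 level of Ccne1 over Ccne2 was 0.00 (-0.14 to 0.13) in replicate 1 and -0.42 (-0.58 to -0.26) in replicate 2. Over coding transcripts the same ratio was 0.02 and 0.24, so the order of the cyclins E was not fixed by these data.

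Over all transcripts, polymerase alpha-primase was led by Prim1, the catalytic primase subunit, with 148 and 182 rescaled TPM. Pola1, the polymerase subunit, had 80.3 and 71.8, Prim2 63.9 and 85.5, and Pola2, the accessory subunit, 46.2 and 35.5. Retained-intron models held 51.3% and 48.8% of the Prim1 TPM. Over coding transcripts Prim1 had 72.1 and 92.9 rescaled TPM and Pola1 77.7 and 66.6, so the lead of Prim1 held in replicate 2 alone. Polymerase epsilon had 91.9 and 80.7 rescaled TPM for the catalytic Pole and 42.7 and 35.5 for Pole2. In polymerase delta, the catalytic Pold1 had 85.4 and 75.9 rescaled TPM, Pold3 51.8 and 89.9, and Pold2 23.7 and 38.9. Over coding transcripts Pold1 had 16.4 and 8.51 rescaled TPM and Pold3 29.8 and 46.6, so Pold3 was the highest there in both libraries. Pold2 rested on 46.0 counts (33.7 to 61.4) in replicate 1 and 40.0 counts (28.6 to 54.5) in replicate 2, and the interval of their log2 ratio ran from -0.65 to 0.64. Its 864-base coding transcript held 17.3 rescaled TPM in replicate 1 and was listed at 0 in replicate 2, where all its coding transcripts together held 0.74 and shorter models of 342 to 611 bases most of the TPM.

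Pcna, the sliding clamp, was 2.85 times as abundant as the next gene, Gmnn, by mean level: 973 ± 79.5 against 342 ± 63.8 rescaled TPM (SD, n = 2). Its 1518-base coding transcript had 662 and 635 rescaled TPM, and a 931-base retained-intron model 334 and 261. The clamp loader genes were far lower: Rfc4 had 132 and 100.3 rescaled TPM, Rfc3 85.9 and 66.2, Rfc2 62.1 and 61.1, Rfc1, the large subunit, 43.1 and 57.0, and Rfc5 29.3 and 29.2. Over all transcripts the 5 loader genes kept this order without overlap between neighbours, but not over coding ones. There Rfc4 had 91.9 and 44.4 rescaled TPM, around the 62.1 and 61.1 of Rfc2, Rfc3 had 32.8 and 26.3, Rfc5 25.5 and 18.5 and Rfc1 a mean of 30.6 ± 7.95 (SD, n = 2), below Rfc5 in replicate 1 and above Rfc3 in replicate 2. A further 42.0% and 36.4% of the Rfc1 TPM lay on transcripts without a type. The replication protein A genes, which cover single-stranded DNA, had 129 and 84.4 rescaled TPM for Rpa3, 79.0 and 98.1 for Rpa1, and 33.7 and 56.3 for Rpa2. Over coding transcripts Rpa3 had 129 and 83.6 rescaled TPM, Rpa1 41.9 and 33.7, and Rpa2 31.1 and 48.8.

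At the fork, Tipin had 209 and 189 rescaled TPM and its partner Timeless 42.3 and 32.9, a log2 difference of 2.31 and 2.52. Wdhd1, the adaptor between helicase and polymerase alpha, had 146 and 116, and Clspn, which encodes the checkpoint mediator claspin, 78.5 and 176. For Timeless, coding transcripts held 3.02 and 4.44 rescaled TPM, and a 2320-base processed transcript led its total with 13.8 and 17.8. Lig1, the ligase of Okazaki fragments, had 178 and 201 rescaled TPM over all transcripts. Over coding transcripts Lig1 had 52.6 and 123, so the libraries were close over all transcripts alone. Fen1, the flap nuclease that acts before it, was the lowest of the 50 genes at 8.20 and 14.4.

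The low Fen1 level stands beside an entry on the other strand. Fen1 lies on the minus strand of chr19:10199132-10204169, and 78.8% of its 2422 exonic bases fall inside exons of Gm10143, an antisense RNA gene at chr19:10198368-10202384 (mm10). Fen1 had 55.2 and 82.0 expected counts and Gm10143 628 and 399, none of them whole, whereas their sums were the whole numbers 683 and 481. Both entries carried the same posterior SD of the count, 6.09 in replicate 1 and 9.70 in replicate 2, or 11.0% and 11.8% of the Fen1 count, the highest such share among the 50 genes. If every count of both entries belonged to Fen1, its level at the same length would be 101 and 84.7 rescaled TPM. This is an upper bound, since Gm10143 reaches beyond Fen1 and may hold reads of its own. The median of the 50 genes was 80.7 and 84.2. Reads of the gene and its antisense partner cannot be told apart in these tables, so the lowest rank of Fen1 is uncertain.

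Counts that are not whole mark reads shared between entries, and 10 of the 50 genes had one in either library (20.0%), against 18.4% of the 9078 nuclear protein-coding genes with at least 20 counts. For 8 of the 10 a partner restored whole sums in both libraries. In 7 pairs the partner overlaps on the opposite strand: Orc1 with Gm12743, Orc2 with Nif3l1, Orc4 with Acvr2a, Gins2 with Gse1, Ccne2 with Ints8, Rfc5 with Wsb2, and Fen1 with Gm10143. In the eighth, Pcna shared reads with the pseudogene Pcna-ps2, which received 18.1 and 21.3 counts beside 3688 and 3054 for Pcna. Gins2 is the other gene for which the split is large: 67.3% of its exonic bases lie in exons of Gse1, and Gins2 had 778 and 982 counts and Gse1 1492 and 1312. All Gins2 TPM in replicate 1 and 89.2% in replicate 2 lay in a 3662-base retained-intron model, and its coding transcript was listed at 0 in replicate 1 and had 10.7 rescaled TPM in replicate 2.

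Transcripts typed as not protein-coding held 31.8% and 32.1% of the TPM of the 50 genes, and 19.1% and 19.0% of their counts. Over nuclear protein-coding genes with at least 20 counts the same shares were 23.7% and 22.5% of TPM and 13.4% and 12.8% of counts. An annotated transcript of this kind exists for 35 of the 50 genes (70.0%), against 60.5% of those genes, and the median share among genes that have one was 35.4% and 31.0%, against 19.3% and 19.8%. In 8 genes, Gins2, Timeless, Mcm10, Orc4, Mcm3, Pold1, Orc3 and Rfc3, it was over 50% in both libraries. In 18 genes it was 0 in both, among them Mcm2, Mcm4, Mcm5, Cdt1, Cdc45, Cdk2, Tipin and 3 GINS genes. These 18 include the genes with no annotated transcript of this kind, where the share can only be 0. The median share was 0 in each library over nuclear protein-coding genes with at least 20 counts, against 16.8% and 16.5% for the 50 genes. For Wdhd1, Rfc1, Pold1 and Pold3, over 5% of the TPM in either library fell on transcripts without a type in the annotation used, 74.6% and 51.3% for Wdhd1, and these are outside the shares.

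**Figure D4:**
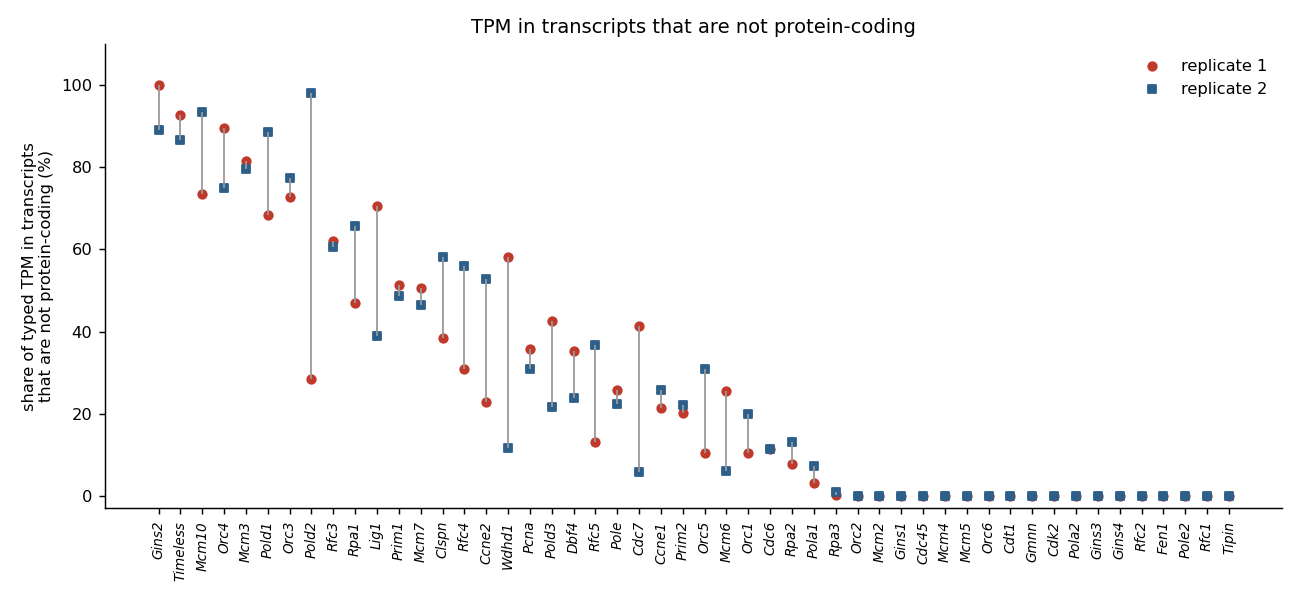
Share of each gene's typed TPM that lies in transcripts not annotated as protein-coding, in percent, with replicate 1 as red circles and replicate 2 as blue squares. Gins2 stands at 100% and 89.2%, 18 genes at 0, and Pold2, Wdhd1 and Cdc7 differ most between the libraries.

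Between the libraries, 3 of the 50 genes lay over 2-fold apart on log2(rescaled TPM + 1) after the median of all tested genes was set to 0, against 17.8% of 9878 genes with at least 20 counts on average. All 3 were higher in replicate 2, as were 8.66% of the tested genes. Among the 7966 genes with at least 43.0 counts, the mean count of the lowest of the 50, 12.5% lay over 2-fold apart. The median absolute log2 ratio was 0.25 for the 50 genes, 0.40 for all tested genes and 0.35 for those with at least 43.0 counts. Within 1.5-fold lay 43 of the 50, against 63.8% of all tested genes. The 50 genes had median counts of 475 and 461, against 148 and 128 for nuclear protein-coding genes with at least 20 counts. The part of sequencing depth in the smaller spread was not tested.

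The 3 genes were Mcm10, Clspn and Gins1, and the transcript tables separate Gins1 from the others. All Gins1 reads lay on a transcript of 1087 bases, with 89.0 counts (71.5 to 109.5) in replicate 1 and 174 counts (149 to 202) in replicate 2. Its log2 ratio, replicate 1 over replicate 2, was -1.16 from TPM and -1.17 from counts (counting interval -1.56 to -0.80).

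Mcm10 had 391 and 499 counts, a log2 ratio of -0.56 from counts but -1.36 from TPM. Its mean transcript length was 2437 bases in replicate 1 and 1443 bases in replicate 2. The 4867-base coding transcript had 213 and 116 counts, and short models of 690 and 508 bases had none in replicate 1 and 41.6 and 18.8 counts in replicate 2. Over coding transcripts alone the ratio was 0.59, the opposite sign.

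Clspn had 871 and 972 counts, a log2 ratio of -0.37 from counts and -1.23 from TPM, and a mean length of 3763 and 2119.9 bases. Its 5027-base coding transcript had 722 and 744 counts and 48.3 and 54.4 rescaled TPM, while a 687-base processed transcript had 11.6 and 71.0. Over all its coding transcripts the ratio was -0.68, the same sign, with 48.3 and 73.6 rescaled TPM. Ccne2 and Pold2 were the other genes whose mean effective length differed by more than 1.5-fold. On counts scaled with edgeR's trimmed mean of M-values, 1 of the 50 genes, Gins1, lay over 2-fold apart, against 18.2% of all tested genes.

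**Figure D5:**
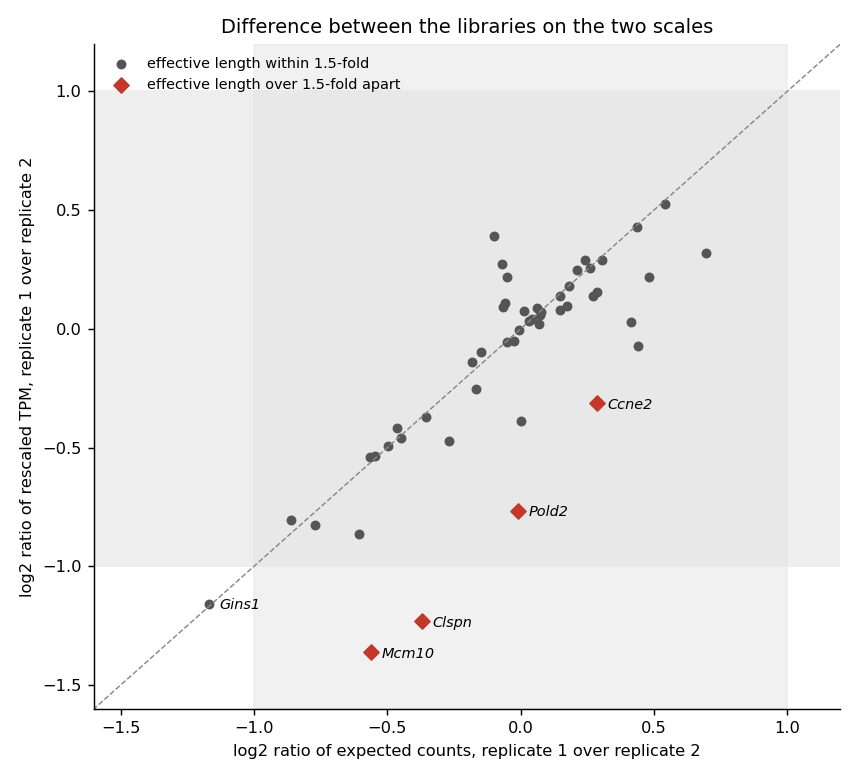
Log2 ratio of replicate 1 over replicate 2 for the 50 genes from expected counts (horizontal) and from rescaled TPM (vertical), with the range within 2-fold shaded on each axis and the diagonal dashed. Red diamonds mark the 4 genes whose effective length differs by over 1.5-fold; Mcm10 and Clspn leave the shaded range on the TPM axis alone, and Gins1 on both.

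Several of the 50 genes share a start region with a neighbour on the opposite strand. Within 1000 bases of the annotated start, on either side, 15 of the 50 (30%) had the start of a protein-coding gene on the other strand, against 10.9% of 21461 nuclear protein-coding genes. Of these 21461 genes, 9033 had 0 counts in both libraries, whereas all 50 were expressed. The part of expression in this difference was not tested. The partners were Prpf38a (Orc1), Rars2 (Orc3), Mbd5 (Orc4), Vps35 (Orc6), Prkdc (Mcm4), Ap4m1 (Mcm7), Ufd1 (Cdc45), Abhd12 (Gins1), Slc25a40 (Dbf4), Pmel (Cdk2), Pxmp2 (Pole), Tmem258 (Fen1), Smyd4 (Rpa1), Umad1 (Rpa3) and Socs4 (Wdhd1). Fen1 was lower than its partner in both libraries, at 8.20 and 14.4 against 120 and 143 rescaled TPM for Tmem258. Orc3 and Rars2 start 13 bases apart, with 106 and 111 against 26.8 and 7.40 rescaled TPM. Mcm4 and Prkdc, the catalytic subunit of the DNA-dependent protein kinase, start 466 bases apart, with 105 and 99.9 against 11.6 and 11.1. A neighbour of this kind that is not typed as protein-coding was annotated for 7 further genes, Gm15834 (Orc2), 6030443J06Rik (Orc5), Gm10614 (Gins2), 1700001G17Rik (Prim2), AV099323 (Pcna), Gm15728 (Rfc5) and Gm26847 (Timeless).

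Other genes of replication, outside the 50, were lower as a list. These 42 genes had a median of 51.6 and 46.8 rescaled TPM, and all 42 reached 1 rescaled TPM in both libraries. They include genes of the checkpoint, of origin control and of fork repair. The list also holds the polymerase subunit genes Pold4, Pole3 and Pole4, and others such as Asf1a, Chaf1a, Nasp, Ssrp1, Top1 and Uhrf1. The highest were Cul4a and Kmt5a, whose products act in Cdt1 turnover and histone H4 methylation, with 302 and 228 and with 208 and 266 rescaled TPM, Fbxo5, an inhibitor of the anaphase-promoting complex, with 254 and 205, and Topbp1, a platform for firing and checkpoint signals, with 236 and 163. Lowest were Recql4 with 5.61 and 2.59 and Atrip with 3.88 and 6.66. Of the 42, 5 lay over 2-fold apart between the libraries, against 17.8% of all tested genes.

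Genes of deoxynucleotide supply had a median of 96.6 and 135 rescaled TPM over 12 genes, led by Rrm2 (706 and 663), Tk1 (478 and 563), Dck (278 and 215) and Rrm1 (220 and 205), with Nme1 (11.7 and 18.1) and Shmt1 (6.90 and 1.11) at the bottom. Mitotic genes were higher than the 50 replication genes, with a median of 294 and 301 rescaled TPM over 20 genes. Mki67 had 3920 and 3962 rescaled TPM, Top2a 1219 and 1135, Birc5 961 and 802 and Ccna2 804 and 763, and the lowest were Bub1b with 121 and 123 and Ttk with 67.7 and 66.6. Pcna, at 1029 and 917, thus lay in the range of the leading mitotic genes, whereas the MCM2-7 median of 165 and 140 lay below the mitotic median. These differences between lists of unlike genes were not tested.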

How the data were processed

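Total RNA of 2 CFU-Ery libraries was measured, with 1 gene table and 1 transcript table each. Per the deposited file descriptions, reads were quantified on mm10 with GENCODE M4. Aligner, quantifier and strand setting are not given in these sources. Expected counts were deposited as estimated numbers of reads for each entry, whole or not. The deposited TPM values are scaled over all entries, spike-ins and mitochondrial RNA included, and were rescaled here to nuclear protein-coding genes. The authors give TPM to 2 decimals, a step of 0.431 and 0.370 rescaled TPM. The deposited posterior SD of a count was treated as a score, and the deposited isoform percent gives, per the file headers, a transcript's share of its gene's TPM. Effective lengths, also deposited, were used as given.

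Gene names, transcript types and coordinates came from GENCODE M21 on GRCm38, which named 42462 of 43346 Ensembl genes, and promoters from RefSeq on GRCm38.p6. Libraries were compared as log2(rescaled TPM + 1), centred on the median of genes with a mean of at least 20 counts, where the median removed was 0.08. A gene was called apart beyond 2-fold. Alternatives used posterior mean TPM, coding transcripts, and counts scaled with edgeR 4.0.16 or DESeq2 1.42.0 size factors. A count within 0.011 of an integer was called whole. Counting intervals were exact Poisson, and exact binomial for ratios. Python 3.11.15 and scipy 1.17.1 were used, and the call was tested on simulated data. Both libraries formed 1 group, so no groups were tested against each other.

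All 50 members were named, with the 4 highest and 2 lowest genes of each compared list, every neighbour starting within 1000 bases, and the 3 leading markers of each marker list. The members and all lists were chosen with earlier results of these data known, so no count over them is independent support. Protein sequences were not used here.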

Additional observations from a re-analysis of the deposited data

How the results depend on the processing

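All 50 genes stayed at or above 1 rescaled TPM under posterior mean TPM, 40 reached 1 on deposited TPM, and 49 reached a threshold of 10. Leaving a library out could not lower the count of 50, since both libraries already had to reach 1 rescaled TPM. Their median of 82.4 rescaled TPM was 54.5 over coding transcripts and 2.07 in deposited TPM, and 80.7 and 84.2 in the single libraries. The 3 genes over 2-fold apart were 1 on counts with TMM or DESeq2 size factors (Gins1), against 18.2% of all tested genes. They were 0 on deposited TPM, against 0.628%, where the pseudocount of 1 is large beside the values. Over coding transcripts, an alternative chosen after seeing the data, they were 6 (Pold2, Rfc4, Gins1, Gins2, Wdhd1 and Lig1), against 18.6% of all tested genes. In the same setting the log2 ratio of Mcm10 turned to 0.59. Over all genes, the 1761 apart were 62 on deposited TPM, 455 with a pseudocount of 10 and 4600 with no minimum count.

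The ratio of the highest to the lowest MCM2-7 subunit, 5.61, was 2.74 over coding transcripts and 2.44 on counts without length. MCM2-7 over ORC1-6, a log2 of 0.86, was 0.73 by posterior mean TPM, 1.34 on counts and 1.67 over coding transcripts. Cdt1 over Gmnn, -2.75, was -1.43 on counts, and Ccne1 over Ccne2, -0.21, was 0.13 over coding transcripts. With 2 libraries, leaving 1 out only returns the value of the other, which is no independent check. The single-library values were 5.48 and 5.74, 0.84 and 0.88, -2.48 and -3.01, and 0.00 and -0.42. The non-coding share of 32.0% of TPM was 19.1% of counts, also chosen after seeing the data. The 21 promoters with a motif were 11 of 40 (27.5%) with TTTGGCGC or TTTCGCGC alone, against 1.23% of nuclear protein-coding genes. They were 13 of 40 (32.5%) in the 250 bases before the start, against 4.57%. Windows in the middle range of GC content, likewise added later, gave 14 of 22, against 6.97% of nuclear protein-coding genes. No paired analysis was possible because the series has 1 group.

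With 2 libraries of 1 ng of RNA, no difference can be tested, and TPM of genes such as Mcm10 and Clspn moved more than their counts where short transcript models took reads. The cause of the differences between the libraries was not tested.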
